A study of Mus musculus with 9 samples.

Results

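The comparison was between cultured primary mouse hepatocytes given 4-octyl itaconate (4OI) and the same kind of culture given DMSO, the solvent. It took in 6 of the 9 RNA sequencing libraries of the series, 3 per group, chosen by their treatment label, and every gene in the table. The 3 remaining libraries came from cells given Bobcat339, an inhibitor of the TET enzymes, and were used to estimate the spread between replicates. In all groups the cells were left 4 h to attach, changed to fresh medium for 24 h and lysed in Trizol. The labels state no dose or time for 4OI and no strain, sex or age of the mice. The protocol lists Remodelin hydrobromide, a NAT10 inhibitor, as optional, without telling which cultures received it. All 3 4OI titles carry the same hepatocyte number, while the DMSO titles carry 3 different numbers, so a difference between cell preparations and the effect of 4OI cannot be told apart by the labels. Separate animals or cultures are not stated, and p-values therefore measure only the spread between these samples, which may be technical.

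Itaconate is made from the citrate cycle intermediate cis-aconitate by the enzyme ACOD1, chiefly in activated macrophages. Its octyl ester enters cells readily and can alkylate cysteines of KEAP1, the adaptor that marks the transcription factor NRF2 for destruction. NRF2 that escapes KEAP1 binds antioxidant response elements and switches on genes for glutathione, thioredoxin, NADPH and heme breakdown. Hepatocytes are the main epithelial cells of the liver and make most plasma proteins, bile acids and drug-metabolising enzymes, while Kupffer cells (the resident macrophages), sinusoidal endothelial cells and stellate cells lie beside them and can be carried into a hepatocyte preparation.

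Library totals were 70876333 to 83902788 deposited counts with 4OI and 67434312 to 68247951 with DMSO. About 4 deposited counts were taken as 1 read pair, which is an assumption. Of 18379 genes tested, 6121 were higher (33.3%) and 5590 lower (30.4%) with 4OI at an adjusted p under 0.05, so that 63.7% of all genes were called. At least 2-fold changes were fitted for 3854 of the higher and 3503 of the lower genes, and at least 16-fold changes for 926 and 1077. The 4OI and DMSO libraries did not overlap in 71.5% of genes. Bobcat339 against the same DMSO libraries called 20.7% of genes, and 4OI against Bobcat339 called 62.2%. Levels below are in CPM (counts scaled to library size after TMM), and log2 fold changes are 4OI minus DMSO ± the standard error of the edgeR fit. Means are given ± SD, with n = 3 in each group. Wherever a called gene is given with its value in each library, the 3 values with 4OI did not overlap the 3 with DMSO. The median log2 fold change over all genes was 0.08, which is the background for the medians of the gene lists given below.

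**Figure D1:**
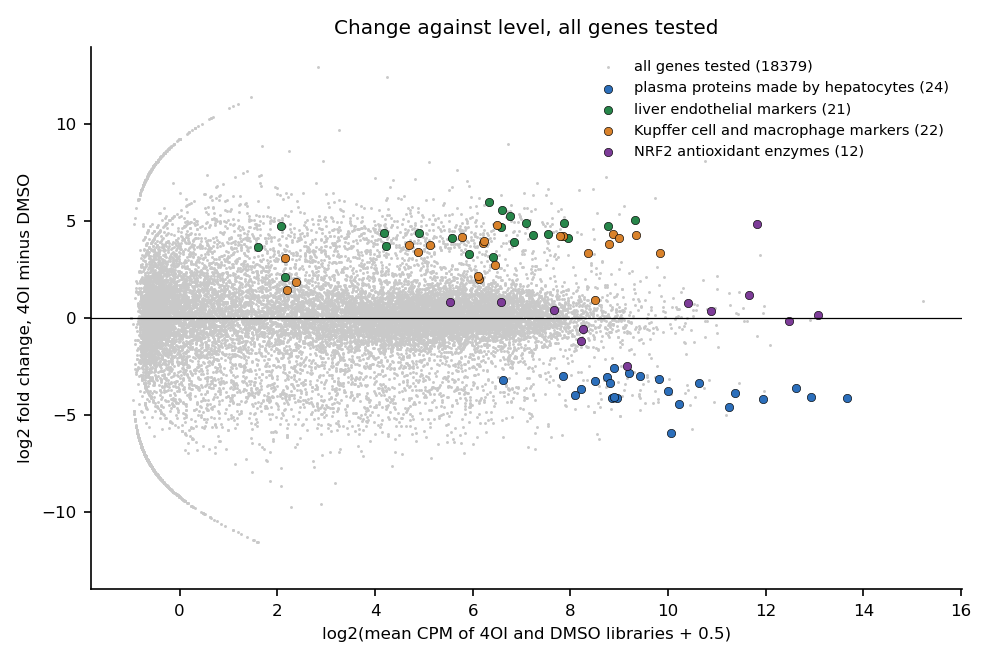
Each point is 1 of 18379 genes, with the log2 of its mean CPM over the 4OI and DMSO libraries plus 0.5 on the x axis and its log2 fold change, 4OI minus DMSO, on the y axis. The 24 plasma protein genes lie between -5.96 and -2.58, the 21 endothelial markers between 2.11 and 5.98 and the 22 macrophage markers between 0.94 and 4.82; the curved edges are genes with no counts in 1 group.

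Genes that mark the hepatocyte were abundant with DMSO and far lower with 4OI. Albumin (Alb), the main plasma protein, had 1384, 1331 and 1473 CPM with 4OI, against 24499, 24695 and 24705 CPM with DMSO. Its level fell about 17.6-fold (log2 fold change -4.14 ± 0.08, adjusted p = 8.43e-11). No 4OI library came near any DMSO library. All 24 plasma protein genes tested were lower, with a median log2 fold change of -3.73, and together they took 0.617%, 0.593% and 0.633% of counts in 4OI libraries, against 8.96%, 8.98% and 8.22% in DMSO libraries. In bulk RNA, fewer hepatocytes and less RNA of these genes per hepatocyte cannot be told apart, and this holds for every list below.

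Other secreted proteins followed albumin. Transferrin (Trf), the iron carrier, averaged 875 ± 23.9 CPM with 4OI and 14705 ± 1633 CPM with DMSO (log2 fold change -4.07 ± 0.11, adjusted p = 2.96e-10). Hemopexin (Hpx), which binds free heme, averaged 929.6 ± 38.0 CPM with 4OI and 11557 ± 1378 CPM with DMSO (log2 fold change -3.64 ± 0.13, adjusted p = 1.89e-09). The largest fall in the list was that of Apob, the structural protein of VLDL, with 32.6, 34.5 and 34.0 CPM with 4OI, against 2006, 1940 and 2333 CPM with DMSO (log2 fold change -5.96 ± 0.18, adjusted p = 5.28e-10). The smallest fall was that of the fibrinogen chain Fgg (log2 fold change -2.58). Of 19 acute phase protein genes 17 were lower and none higher, with a median of -3.64.

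Transcription factors that hold the hepatocyte state were mostly lower. Of 18 such factors 13 were lower and 2 higher, with a median log2 fold change of -4.60. Hnf4a, a central regulator of hepatocyte genes, had 1.95, 2.36 and 3.38 CPM with 4OI, against 152, 154 and 149.9 CPM with DMSO (log2 fold change -5.88 ± 0.18, adjusted p = 5.67e-10). It was almost lost in all 3 4OI libraries. The pioneer factors Foxa1 and Foxa2 (log2 fold changes -5.69 and -6.61), Onecut2 (-6.06) and the fatty acid sensor Ppara (-6.36) fell as well. Cebpa and Rxra, which macrophages express too, were the 2 that rose: Cebpa averaged 130.4 ± 6.01 CPM with 4OI and 79.1 ± 9.96 CPM with DMSO (log2 fold change 0.72 ± 0.11, adjusted p = 1.85e-04). Rxra averaged 180.2 ± 3.86 CPM with 4OI and 121 ± 10.5 CPM with DMSO (log2 fold change 0.57 ± 0.08, adjusted p = 8.64e-05).

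The working genes of the hepatocyte fell as broadly. All 17 cytochrome P450 genes tested were lower (median -3.92), among them Cyp2e1, which oxidises ethanol, with 74.5, 71.0 and 77.8 CPM with 4OI, against 1314, 1385 and 1173 CPM with DMSO (log2 fold change -4.12 ± 0.11, adjusted p = 2.62e-10). Cyp2a5 averaged 29.5 ± 2.46 CPM with 4OI and 998 ± 16.6 CPM with DMSO (log2 fold change -5.08 ± 0.09, adjusted p = 5.50e-11). Of 12 transporters 11 were lower and none higher (median -3.29). Abcc2, the canalicular pump for conjugated organic anions, fell most, with 9.91, 7.82 and 11.6 CPM with 4OI, against 717, 699 and 841 CPM with DMSO (log2 fold change -6.26 ± 0.17, adjusted p = 3.06e-10). Of 22 genes of the urea cycle and amino acid breakdown, 20 were lower (median -2.50), including Ass1, which makes argininosuccinate (log2 fold change -2.86), and Cps1, which commits ammonia to the cycle (-2.52). Arg1, the last enzyme of the cycle and also a macrophage gene, averaged 11.8 ± 1.70 CPM with 4OI and 11.9 ± 1.15 CPM with DMSO and did not pass the test (adjusted p = 0.956). The 1 member that rose was Glul, glutamine synthetase, with 693, 714 and 714 CPM with 4OI, against 96.8, 94.2 and 83.7 CPM with DMSO (log2 fold change 2.95 ± 0.08, adjusted p = 3.99e-10).

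Lists of lipid and glucose metabolism were mostly lower, with exceptions in some of them. Fatty acid synthesis had 13 of 15 genes lower and none higher (median -2.27), led by Mlxipl, the glucose-responsive activator (log2 fold change -6.27 ± 0.22, adjusted p = 1.60e-09). Scd1, the stearoyl-CoA desaturase, had 52.8, 52.4 and 54.5 CPM with 4OI, against 2794, 2860 and 2802 CPM with DMSO (log2 fold change -5.73 ± 0.08, adjusted p = 5.50e-11). Cholesterol synthesis had 21 of 22 genes lower (median -1.85), among them the regulator Srebf2 (-0.34). The exception was Mvd, with 9.47 ± 0.643 CPM with 4OI and 6.798 ± 0.767 CPM with DMSO (log2 fold change 0.48 ± 0.14, adjusted p = 0.0141). The same list moved the other way with Bobcat339, with 16 of 22 higher than DMSO and none lower.

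Fatty acid oxidation was mixed, with 11 of 18 genes lower and 5 higher. Cpt1a, which admits long-chain fatty acids to mitochondria, had 248, 243 and 257 CPM with 4OI, against 88.0, 87.1 and 84.7 CPM with DMSO (log2 fold change 1.53 ± 0.06, adjusted p = 5.86e-09). The lipid droplet coat Plin2 averaged 1757 ± 87.0 CPM with 4OI and 687 ± 65.7 CPM with DMSO (log2 fold change 1.36 ± 0.10, adjusted p = 3.73e-07). Gluconeogenesis and glycogen genes were lower in 9 of 10 (median -3.01), and Pcx, pyruvate carboxylase, averaged 21.7 ± 1.67 CPM with 4OI and 264 ± 33.8 CPM with DMSO (log2 fold change -3.61 ± 0.13, adjusted p = 1.44e-09). Of 22 glycolysis and hypoxia genes 13 were lower, or 7 when a change of at least 2-fold was tested, and 6 were higher. Isoforms of 1 step could part, but widely expressed enzymes moved both ways. The liver pyruvate kinase Pklr averaged 1.23 ± 0.3004 CPM with 4OI and 93.9 ± 5.01 CPM with DMSO (log2 fold change -6.25 ± 0.18, adjusted p = 4.10e-10). The widely expressed Pkm averaged 3354 ± 97.9 CPM with 4OI and 733 ± 75.3 CPM with DMSO (log2 fold change 2.19 ± 0.09, adjusted p = 5.75e-09). Hexokinase Hk1 averaged 148 ± 2.56 CPM with 4OI and 18.7 ± 1.52 CPM with DMSO (log2 fold change 2.99 ± 0.09, adjusted p = 5.53e-10). Lactate dehydrogenase Ldha (log2 fold change -1.86 ± 0.10, adjusted p = 4.01e-08) and enolase Eno1 (log2 fold change -1.50 ± 0.11, adjusted p = 3.94e-07), which are also widely expressed, fell.

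**Figure D2:**
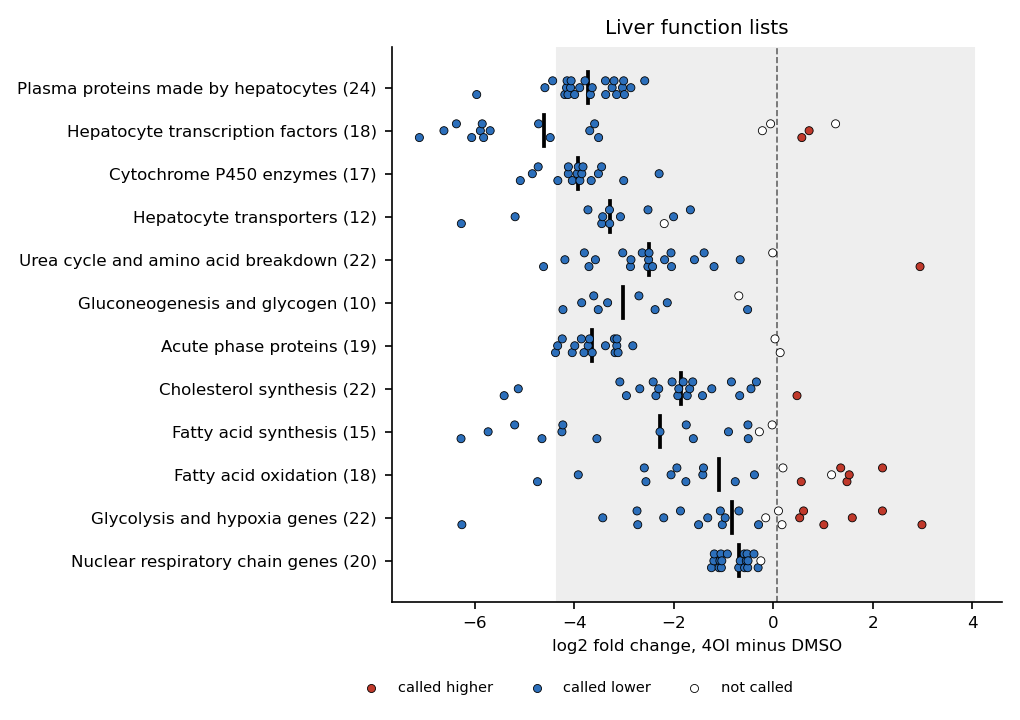
Each point is 1 gene of a list, placed by its log2 fold change, 4OI minus DMSO; red points were called higher, blue points lower and white points were not called. Black bars are list medians, the dashed line is the median of all genes (0.08) and the grey band runs from their 5th to their 95th percentile (-4.33 to 4.04); all 24 plasma protein and all 17 P450 genes lie left of the line.

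Markers of the other cells of the liver went 2 ways. All 22 Kupffer cell and macrophage markers were higher with 4OI (median log2 fold change 3.77), and together they took 0.920%, 0.900% and 0.897% of counts in 4OI libraries, against 0.0874%, 0.0850% and 0.0821% in DMSO libraries. Clec4f, a lectin largely restricted to mouse Kupffer cells, had 48.1, 46.6 and 47.8 CPM with 4OI, against 3.69, 3.70 and 3.18 CPM with DMSO (log2 fold change 3.75 ± 0.24, adjusted p = 1.78e-07). The macrophage adhesion receptor Adgre1 (F4/80) had 591, 599 and 594 CPM with 4OI, against 58.9, 56.5 and 59.5 CPM with DMSO (log2 fold change 3.35 ± 0.14, adjusted p = 5.47e-09). None of the 22 was at 0 in DMSO libraries, and the rise differed by gene, with Cd68 at 0.94 ± 0.09, adjusted p = 5.19e-06 and the mannose receptor Mrc1 at 4.82 ± 0.32, adjusted p = 2.04e-07.

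With Bobcat339 none of these markers was higher than with DMSO and 21 were lower, so 21 of 22 moved in opposite directions under the 2 treatments. Tested directly, 4OI minus Bobcat339 was 5.68, adjusted p = 1.45e-08 for Clec4f and 5.75, adjusted p = 2.60e-10 for Adgre1 on the log2 scale.

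All 21 liver endothelial markers were higher too (median 4.41), with 0.554%, 0.555% and 0.576% of counts in 4OI libraries, against 0.0236%, 0.0231% and 0.0202% in DMSO libraries. Pecam1, an adhesion molecule of endothelial junctions, had 831, 823 and 853 CPM with 4OI, against 32.6, 32.6 and 26.6 CPM with DMSO (log2 fold change 4.77 ± 0.13, adjusted p = 2.62e-10). The junction cadherin Cdh5 had 1216, 1222 and 1303 CPM with 4OI, against 39.1, 39.7 and 34.6 CPM with DMSO (log2 fold change 5.04 ± 0.10, adjusted p = 8.96e-11). The VEGF receptor Kdr averaged 352 ± 4.20 CPM with 4OI and 17.3 ± 1.15 CPM with DMSO (log2 fold change 4.35 ± 0.11, adjusted p = 1.81e-10). The sinusoidal scavenger receptor Stab2 averaged 213 ± 5.58 CPM with 4OI and 14.2 ± 0.272 CPM with DMSO (log2 fold change 3.91 ± 0.08, adjusted p = 8.96e-11). The lectin Clec4g and the clotting factor carrier Vwf were at 0 in at least 1 DMSO library. The list was detected in every DMSO library at a low level and higher with 4OI, at a mean summed share of 0.562% with 4OI and 0.0223% with DMSO.

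Of 20 stellate and fibroblast markers 15 were higher and none lower (median 1.86), with 0.191% to 0.200% of counts in 4OI libraries, against 0.0393% to 0.0432% in DMSO libraries. Most of this share in both groups came from 1 gene, Vim, so the share says little about the other members. Vim averaged 1582 ± 49.9 CPM with 4OI and 359 ± 22.4 CPM with DMSO (log2 fold change 2.14 ± 0.07, adjusted p = 1.06e-09). Dcn, a matrix proteoglycan, averaged 138 ± 7.09 CPM with 4OI and 5.08 ± 1.09 CPM with DMSO (log2 fold change 4.76 ± 0.19, adjusted p = 3.27e-09). The quiescent stellate cell marker Reln averaged 35.9 ± 1.71 CPM with 4OI and 26.0 ± 2.08 CPM with DMSO (log2 fold change 0.47 ± 0.09, adjusted p = 8.84e-04). The retinol-esterifying Lrat had 1.97, 0.752 and 0.923 CPM with 4OI, against 0.0595, 0.119 and 0.180 CPM with DMSO, with no fold given because the DMSO libraries lay at or under the floor of 3 read pairs.

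Most epithelial markers fell. Of 16 cholangiocyte and progenitor markers 12 were lower and none higher (median -4.04). The keratin Krt18, which hepatocytes make as well, had 173, 160.1 and 177 CPM with 4OI, against 2989, 2990 and 2544 CPM with DMSO (log2 fold change -4.06 ± 0.11, adjusted p = 2.52e-10). E-cadherin (Cdh1), the junction protein of epithelia, had 9.58, 7.52 and 8.53 CPM with 4OI, against 285, 296 and 279 CPM with DMSO (log2 fold change -5.07 ± 0.11, adjusted p = 1.28e-10). The duct keratin Krt19 was low in all libraries, at 2.21 ± 0.586 CPM with 4OI and 19.7 ± 1.12 CPM with DMSO (log2 fold change -3.16 ± 0.72, adjusted p = 0.00291). All 14 intestinal epithelial markers were lower with 4OI (median -4.57). The goblet cell mucin Muc2 had 4.64, 5.37 and 0 CPM with 4OI, against 69.5, 61.5 and 72.5 CPM with DMSO (log2 fold change -4.36 ± 1.20, adjusted p = 0.00863), so that RNA of intestinal genes was measurable in DMSO libraries and was missing for this gene from 1 of the 4OI libraries. With Bobcat339 1 of these 14 was called lower than with DMSO (list median -1.23), but the Bobcat339 libraries were not alike. Muc2 had 57.9, 6.70 and 4.13 CPM in the 3 Bobcat339 libraries, so the first was near the DMSO level and the other two were far below it, near the 2 4OI libraries with counts. Lgals4, an intestinal galectin, had 22.4, 2.10 and 2.74 CPM in the same libraries.

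Blood cell markers were tested only in part. Of 14 T and NK cell markers 3 passed the filter and Cd3e did not, and the B cell marker Cd79a averaged 0.227 ± 0.0945 CPM with 4OI and 0.0896 ± 0.0791 CPM with DMSO (adjusted p = 0.279). Eomes, a T and NK cell factor, was lower, with 0.0503, 0.107 and 0 CPM with 4OI, against 0.327, 0.418 and 0.180 CPM with DMSO (adjusted p = 0.0209), and no fold is given because the 4OI libraries lay under the floor. Of 8 B and plasma cell markers 3 were higher and 1 lower: the lectin Cd22 rose (log2 fold change 4.64 ± 0.26, adjusted p = 4.90e-08) and the B cell factor Pax5 fell (log2 fold change -3.41 ± 0.60, adjusted p = 5.06e-04). Of 8 neutrophil and monocyte markers 4 were higher and 1 lower. The integrin Itgam, which macrophages also carry, averaged 122 ± 8.07 CPM with 4OI and 9.53 ± 0.204 CPM with DMSO (log2 fold change 3.68 ± 0.09, adjusted p = 2.00e-10). S100a8, a neutrophil calcium-binding protein, averaged 3.68 ± 0.871 CPM with 4OI and 0.388 ± 0.0650 CPM with DMSO (log2 fold change 3.24 ± 0.67, adjusted p = 0.00154), its partner S100a9 did not pass the test (adjusted p = 0.898), and Ly6g, the defining neutrophil marker in mice, fell (log2 fold change -3.99 ± 1.41, adjusted p = 0.0294). Of 14 dendritic, mast and eosinophil markers 4 passed the filter and all 4 were called higher. Of these, Ccr7 averaged 0.0200 CPM and Clec9a 0.189 CPM with DMSO, where the floor was 0.178 to 0.180 CPM. These had little room to be called lower, so the count says little about direction. Ccr3 averaged 6.82 CPM with 4OI and 0.398 CPM with DMSO. Cpa3, Mcpt4, Fcer1a and Ms4a2 of the same list did not pass it. The stem cell factor receptor Kit, 1 of the 4, averaged 234 ± 7.72 CPM with 4OI and 10.5 ± 2.09 CPM with DMSO (log2 fold change 4.47 ± 0.19, adjusted p = 6.43e-09).

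**Figure D3:**
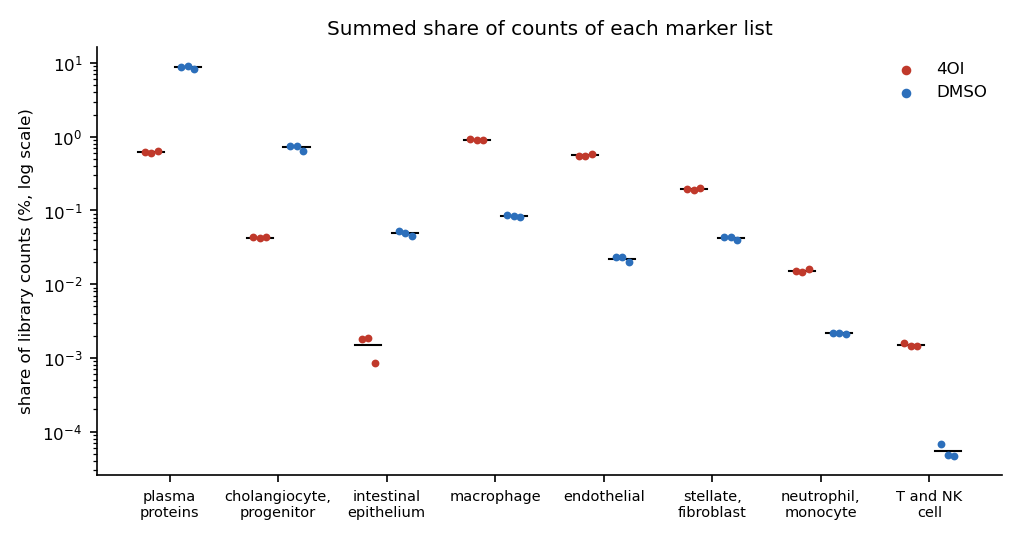
The summed share of library counts, in percent on a log axis, is given for 8 marker lists; each point is 1 library, with 4OI in red at the left and DMSO in blue at the right of each pair, and bars are means of 3 libraries. Plasma protein, cholangiocyte and intestinal lists sit lower with 4OI and the macrophage, endothelial, stellate, neutrophil and T cell lists higher. The groups do not overlap in any of the 8 lists. Krt8 and Krt18 make up most of the cholangiocyte share in both groups, and hepatocytes make both as well. Il7r makes up most of the T cell share with 4OI and Itgam, also a macrophage gene, most of the neutrophil share. Vim makes up most of the stellate share in both groups.

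Genes of the NRF2 pathway, the pathway 4OI is known for, did not move as 1 block. Heme oxygenase (Hmox1), which opens the heme ring to biliverdin, iron and carbon monoxide, had 7230, 6884 and 6930 CPM with 4OI, against 255, 254 and 225 CPM with DMSO. It became the 4th most abundant transcript of the 4OI libraries (log2 fold change 4.84 ± 0.08, adjusted p = 5.50e-11). Of 12 antioxidant enzyme genes in its list 7 were higher and 3 lower (median 0.39), with 2 higher when a change of at least 2-fold was tested. The peroxide reductase Prdx1 had 4818, 4633 and 3981 CPM with 4OI, against 2019, 1944 and 1981 CPM with DMSO (log2 fold change 1.18 ± 0.08, adjusted p = 3.86e-07). Thioredoxin reductase Txnrd1 had 1701, 1674 and 1728 CPM with 4OI, against 983, 990.4 and 1014 CPM with DMSO (log2 fold change 0.77 ± 0.06, adjusted p = 8.71e-07).

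Other common readouts of NRF2 rose by less than 2-fold. Nqo1, a quinone reductase, averaged 59.3 ± 3.61 CPM with 4OI and 33.0 ± 3.69 CPM with DMSO (log2 fold change 0.85 ± 0.11, adjusted p = 3.90e-05). Sulfiredoxin Srxn1 averaged 2107 ± 17.8 CPM with 4OI and 1635 ± 70.3 CPM with DMSO (log2 fold change 0.37 ± 0.06, adjusted p = 4.90e-04). The difference between 4OI and Bobcat339 did not pass the test for Srxn1 (4OI minus Bobcat339 -0.15, adjusted p = 0.0567), and did for Hmox1 (3.87, adjusted p = 7.66e-11). The members that fell were Prdx6, a peroxiredoxin with phospholipase activity (172 ± 7.65 CPM with 4OI and 973 ± 84.05 CPM with DMSO; -2.50 ± 0.10, adjusted p = 3.51e-09), Osgin1 (-1.19 ± 0.10, adjusted p = 1.24e-06) and Txn1 (-0.55 ± 0.08, adjusted p = 2.02e-04).

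Glutathione genes were lower in 12 of 18 and higher in 3 (median -1.56). The subunits of the rate-limiting enzyme of glutathione synthesis parted. The modifier Gclm had 979, 972 and 968 CPM with 4OI, against 283, 286 and 295 CPM with DMSO (log2 fold change 1.75 ± 0.06, adjusted p = 1.39e-09). The catalytic Gclc had 264, 276 and 284 CPM with 4OI, against 718, 765 and 812 CPM with DMSO (log2 fold change -1.48 ± 0.07, adjusted p = 2.42e-08). The glutathione conjugate exporter Abcc1 had 598, 591 and 616 CPM with 4OI, against 83.8, 89.4 and 77.9 CPM with DMSO (log2 fold change 2.85 ± 0.08, adjusted p = 2.96e-10). Chac1, which breaks glutathione down, averaged 77.1 ± 2.38 CPM with 4OI and 18.04 ± 2.07 CPM with DMSO (log2 fold change 2.10 ± 0.10, adjusted p = 1.94e-08). The cystine importer Slc7a11 averaged 415 ± 23.9 CPM with 4OI and 479 ± 51.7 CPM with DMSO and did not pass the test (adjusted p = 0.204). Glutathione transferases, which hepatocytes make in bulk, ranged from Gstm3 at -5.22 and Gsta1 at -4.84 to Gstp1 at -2.48 on the log2 scale, and microsomal Mgst1 averaged 148 ± 9.90 CPM with 4OI and 1401 ± 27.6 CPM with DMSO (log2 fold change -3.24 ± 0.08, adjusted p = 1.85e-10).

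Among 9 genes of NADPH supply 4 were higher and 4 lower. G6pdx, the entry enzyme of the pentose phosphate pathway, had 444, 435 and 464 CPM with 4OI, against 48.1, 51.9 and 42.4 CPM with DMSO (log2 fold change 3.24 ± 0.10, adjusted p = 5.64e-10). Transaldolase Taldo1 averaged 930.4 ± 62.5 CPM with 4OI and 329 ± 24.1 CPM with DMSO (adjusted p = 1.04e-07). Malic enzyme Me1 went the other way, with 61.3, 61.8 and 57.8 CPM with 4OI, against 342, 361 and 368 CPM with DMSO (log2 fold change -2.57 ± 0.07, adjusted p = 4.59e-10). Pgd, the next enzyme after G6pdx, averaged 1337 ± 26.2 CPM with 4OI and 1354 ± 120.5 CPM with DMSO (adjusted p = 0.881). Of 12 detoxifying reductases and related enzymes 9 were lower and 2 higher. Akr1b8, an aldose reductase family member, had 1110, 1070 and 1028 CPM with 4OI, against 18.4, 19.3 and 19.7 CPM with DMSO (log2 fold change 5.81 ± 0.09, adjusted p = 5.50e-11). Ephx1, microsomal epoxide hydrolase, averaged 31.1 ± 1.77 CPM with 4OI and 749 ± 74.0 CPM with DMSO (log2 fold change -4.59 ± 0.11, adjusted p = 1.79e-10).

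Regulators of the pathway rose in 9 of 12, with 3 past a 2-fold test, and fell in 2. Nfe2l2, the gene of NRF2, averaged 348 ± 9.70 CPM with 4OI and 166 ± 10.4 CPM with DMSO (log2 fold change 1.06 ± 0.07, adjusted p = 3.40e-07). Keap1 averaged 98.7 ± 2.06 CPM with 4OI and 73.0 ± 6.31 CPM with DMSO (log2 fold change 0.44 ± 0.10, adjusted p = 0.00350). The largest rises were those of Trim16 (38.8 ± 0.626 CPM with 4OI and 3.04 ± 0.366 CPM with DMSO; 3.67 ± 0.19, adjusted p = 3.43e-08) and Bach1, a repressor of Hmox1 (248 ± 19.1 CPM with 4OI and 43.4 ± 5.03 CPM with DMSO; 2.52 ± 0.14, adjusted p = 6.47e-08). The small MAF partner Mafg rose (1.72 ± 0.07, adjusted p = 6.95e-09) and Maff fell (-1.09 ± 0.08, adjusted p = 8.34e-07). In the same libraries macrophage and endothelial markers were higher and hepatocyte genes lower by the shares given above, and their part in the changes of NRF2 genes was not tested. The largest rises in the 5 lists were those of Akr1b8 (5.81) and Hmox1 (4.84). The highest log2 fold changes of the marker lists were 4.82 for macrophage and 4.76 for stellate markers. For endothelial markers the highest was 5.98, for the transcription factor Erg.

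**Figure D4:**
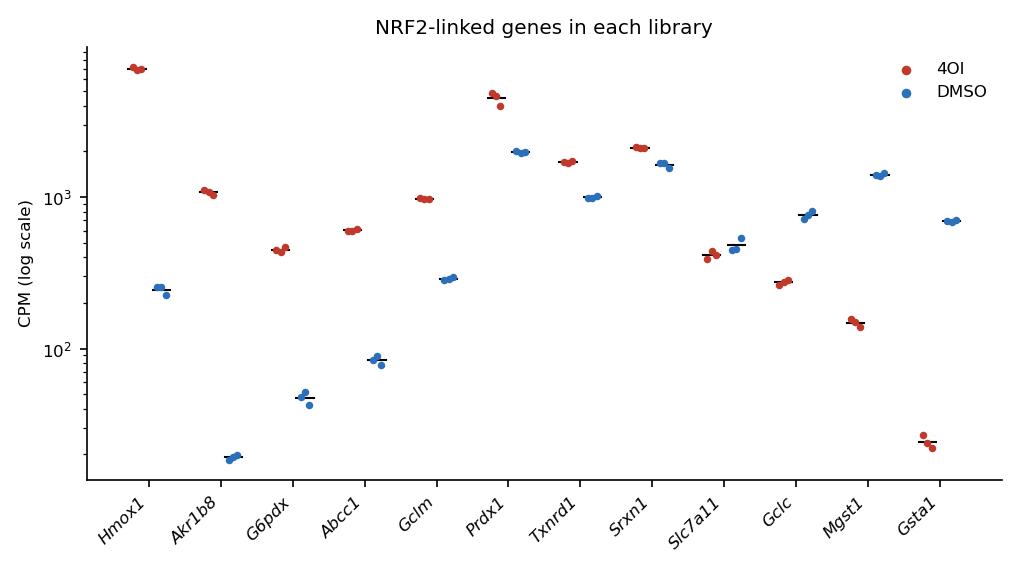
CPM on a log axis for 12 NRF2-linked genes, with 3 4OI libraries (red, left) and 3 DMSO libraries (blue, right) for each gene and bars at the means. Hmox1, Akr1b8, G6pdx, Abcc1, Gclm, Prdx1, Txnrd1 and Srxn1 sit higher with 4OI and Gclc, Mgst1 and Gsta1 lower, with no overlap; Slc7a11 did not pass the test.

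The promoters of these genes are shown because NRF2 acts through a short element that can be read in them. Windows from RefSeq run from 250 bases before to 50 after the gene start (assembly GRCm38.p6), and the element core was searched as TGACNNNGC on both strands. Of the 63 tested members of the 5 NRF2 lists 55 had a window, and 16 of them (29.1%) held the core, against 13.99% of all genes with a window. Of those 16 genes 9 were higher and 5 lower with 4OI, so the core was found in windows of genes that moved in either direction. The 150 bases around the first match are given 5′ to 3′ for 4 genes that rose, Gclm (chr3:122245368-122245517 (plus strand)), Txnrd1 (chr10:82859059-82859208 (plus strand)), Prdx1 (chr4:116685411-116685560 (plus strand)) and G6pdx (chrX:74428843-74428992 (minus strand)), and for 2 that fell, Me1 (chr9:86695865-86696014 (minus strand)) and Ugdh (chr5:65435880-65436029 (minus strand)), which oxidises UDP-glucose. Capitals mark each match.
Gclm: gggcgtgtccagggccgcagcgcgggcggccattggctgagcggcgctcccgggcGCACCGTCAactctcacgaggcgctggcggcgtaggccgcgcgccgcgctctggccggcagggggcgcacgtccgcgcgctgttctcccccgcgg
Txnrd1: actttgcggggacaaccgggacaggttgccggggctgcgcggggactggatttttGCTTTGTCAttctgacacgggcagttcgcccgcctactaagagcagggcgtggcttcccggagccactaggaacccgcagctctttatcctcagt
Prdx1: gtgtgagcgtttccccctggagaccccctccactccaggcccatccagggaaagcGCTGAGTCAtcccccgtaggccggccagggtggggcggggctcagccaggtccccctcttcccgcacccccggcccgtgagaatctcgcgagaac
G6pdx: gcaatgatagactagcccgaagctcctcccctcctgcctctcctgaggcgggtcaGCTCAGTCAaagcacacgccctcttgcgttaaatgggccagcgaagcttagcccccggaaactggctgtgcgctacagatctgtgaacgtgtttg
Me1: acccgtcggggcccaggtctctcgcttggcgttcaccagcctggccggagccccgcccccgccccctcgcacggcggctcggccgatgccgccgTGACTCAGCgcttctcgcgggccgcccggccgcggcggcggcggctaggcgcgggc
Ugdh: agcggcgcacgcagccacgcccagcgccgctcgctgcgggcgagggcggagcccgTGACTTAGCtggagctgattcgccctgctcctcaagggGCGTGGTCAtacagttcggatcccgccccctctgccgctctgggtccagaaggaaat
Akr1b8 had a window without the core, which says only that these letters are not in it. Hmox1, Abcc1 and Trim16 had no window in the table. For the 24 plasma protein genes 16 had a window and none held the HNF4 site CAAAGTCCA, which 0.555% of all genes with a window held. At so low a share, finding none among 16 genes tells nothing about these promoters.

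Itaconate's own enzyme rose. Acod1, chiefly a macrophage gene, had 90.4, 86.0 and 92.1 CPM with 4OI, against 5.56, 6.70 and 6.53 CPM with DMSO (log2 fold change 3.84 ± 0.13, adjusted p = 1.12e-09). It was not called with Bobcat339 (4OI minus Bobcat339 4.00, adjusted p = 7.61e-10). All 22 macrophage markers were higher in the same 4OI libraries, with a median log2 fold change of 3.77, and their part in the rise of Acod1 was not tested. Of 19 genes of itaconate metabolism and the citrate cycle it was the 1 that was higher, and 13 were lower (median -0.66), with 7 past a 2-fold test. Aco1, a cytosolic aconitase and iron sensor, averaged 88.8 ± 5.85 CPM with 4OI and 251 ± 18.3 CPM with DMSO (log2 fold change -1.50 ± 0.08, adjusted p = 4.50e-08). Sdha, the succinate dehydrogenase subunit, averaged 224 ± 2.77 CPM with 4OI and 333 ± 8.47 CPM with DMSO (log2 fold change -0.57 ± 0.06, adjusted p = 1.33e-05).

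Heat shock genes rose in 7 of 14 and fell in 4, with 4 higher past a 2-fold test. The inducible HSP70 genes led, with Hspa1a at 81.8, 84.8 and 90.6 CPM with 4OI, against 5.22, 5.68 and 3.66 CPM with DMSO (log2 fold change 4.14 ± 0.15, adjusted p = 1.71e-09) and its neighbour Hspa1b at 132 ± 8.54 CPM with 4OI and 13.2 ± 1.83 CPM with DMSO (log2 fold change 3.32 ± 0.11, adjusted p = 8.28e-10). These 2 genes are nearly identical, and reads can be split between them. The difference between 4OI and Bobcat339 did not pass the test for either (4OI minus Bobcat339 0.19, adjusted p = 0.233 for Hspa1a and 0.20, adjusted p = 0.0900 for Hspa1b). The small heat shock proteins parted, with Cryab at 48.7 ± 0.996 CPM with 4OI and 2.93 ± 0.692 CPM with DMSO (log2 fold change 4.05 ± 0.18, adjusted p = 8.10e-09) and Hspb1 at 37.1 ± 1.19 CPM with 4OI and 289 ± 37.5 CPM with DMSO (log2 fold change -2.96 ± 0.12, adjusted p = 5.28e-09). Cryab did differ between the treatments (4.05, adjusted p = 7.31e-09). The HSP110 chaperone Hsph1 rose (log2 fold change 1.48 ± 0.11, adjusted p = 4.19e-07). Hspa8, the constitutive HSP70, was slightly lower (log2 fold change -0.17 ± 0.06, adjusted p = 0.0250), but its log2 fold change was 0.00 when libraries were scaled on housekeeping genes.

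Genes of the ATF4 response, which follows amino acid shortage and other stress, were higher in 10 of 21 and lower in 6 (median 0.55), with 4 higher past a 2-fold test. With Bobcat339 11 were higher than with DMSO and none lower. Atf4 itself averaged 545 ± 23.9 CPM with 4OI and 254 ± 8.68 CPM with DMSO (log2 fold change 1.10 ± 0.08, adjusted p = 3.28e-07). The leucine importer Slc7a5 averaged 243 ± 5.92 CPM with 4OI and 48.9 ± 4.12 CPM with DMSO (log2 fold change 2.32 ± 0.09, adjusted p = 3.26e-09). The stress hormone Gdf15 averaged 153 ± 10.4 CPM with 4OI and 39.2 ± 3.92 CPM with DMSO (log2 fold change 1.97 ± 0.10, adjusted p = 3.42e-08). Ddit3 (CHOP), the pro-death arm, was not raised, at 36.0 ± 3.57 CPM with 4OI and 43.0 ± 1.74 CPM with DMSO (log2 fold change -0.26 ± 0.09, adjusted p = 0.0268). Genes of the endoplasmic reticulum unfolded protein response were lower in 9 of 15, with 2 past a 2-fold test, and higher in 2 (median -0.47). The chaperone Hspa5 (BiP) had 751, 769 and 779.7 CPM with 4OI, against 1609, 1607 and 2175 CPM with DMSO (log2 fold change -1.23 ± 0.12, adjusted p = 4.08e-06). With Bobcat339 9 of the 15 were higher than with DMSO and none lower, and 4OI minus Bobcat339 was -2.13, adjusted p = 5.30e-08 for Hspa5.

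**Figure D5:**
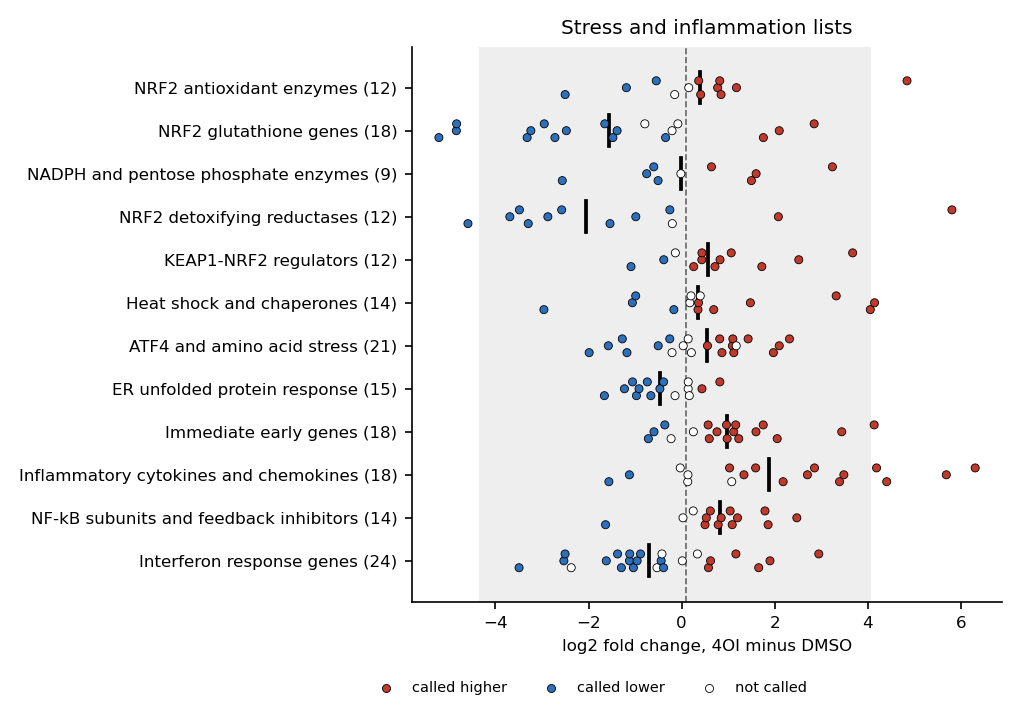
Each point is 1 gene of a stress or inflammation list, placed by its log2 fold change, 4OI minus DMSO; red points were called higher, blue points lower and white points were not called. Black bars are list medians, the dashed line is the median of all genes (0.08) and the grey band runs from their 5th to their 95th percentile; the glutathione and reductase lists lie mostly left of the line and the cytokine list mostly right of it.

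Inflammatory genes were mostly higher. Of 18 cytokines and chemokines 12 were higher and 2 lower (median 1.88). Il1b, the inflammasome cytokine, had 15.7, 19.3 and 18.04 CPM with 4OI, against 4.43, 3.73 and 3.57 CPM with DMSO (log2 fold change 2.18 ± 0.15, adjusted p = 3.69e-07). The neutrophil chemokine Cxcl2 averaged 60.6 ± 1.17 CPM with 4OI and 5.77 ± 0.622 CPM with DMSO (log2 fold change 3.39 ± 0.12, adjusted p = 1.34e-09). Ptgs2, the inducible cyclooxygenase, averaged 49.4 ± 4.76 CPM with 4OI and 0.960 ± 0.316 CPM with DMSO (log2 fold change 5.68 ± 0.28, adjusted p = 2.00e-08). Il6 had 4.30, 2.78 and 3.91 CPM with 4OI, against 0.134, 0 and 0 CPM with DMSO, and since the DMSO libraries lay at or under the floor of 3 read pairs no fold is given (adjusted p = 1.18e-04). The chemokines Cxcl10 and Ccl2 fell. Cxcl10, which interferon induces, had 3.62, 3.30 and 3.43 CPM with 4OI, against 11.03, 8.40 and 11.2 CPM with DMSO (log2 fold change -1.56 ± 0.13, adjusted p = 1.51e-06). Ccl2, which attracts monocytes, had 36.3, 33.5 and 29.9 CPM with 4OI, against 70.7, 63.9 and 82.6 CPM with DMSO (log2 fold change -1.12 ± 0.11, adjusted p = 5.02e-06). Cxcl10 moved in opposite directions under the 2 treatments, and 4OI minus Bobcat339 was -3.16, adjusted p = 6.47e-09. Macrophage markers were higher in the same 4OI libraries (22 of 22), and their part in the cytokine values was not tested.

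Of 14 NF-kB subunits and feedback inhibitors 11 were higher and 1 lower (median 0.82), with 4 higher past a 2-fold test. Bobcat339 against DMSO gave 11 higher and none lower (median 0.84). Nfkbia, the inhibitor that NF-kB induces, averaged 112 ± 3.54 CPM with 4OI and 20.3 ± 2.39 CPM with DMSO (log2 fold change 2.47 ± 0.10, adjusted p = 4.86e-09). The 1 lower was Bcl3, a nuclear cofactor, with 13.5 ± 1.90 CPM with 4OI and 42.1 ± 6.90 CPM with DMSO (log2 fold change -1.64 ± 0.14, adjusted p = 2.08e-06). Interferon response genes leaned the other way, with 13 of 24 lower and 6 higher (median -0.71), and 4 lower past a 2-fold test. Usp18, a brake on the interferon receptor, averaged 4.56 ± 1.31 CPM with 4OI and 51.2 ± 3.85 CPM with DMSO (log2 fold change -3.49 ± 0.19, adjusted p = 4.15e-08). Irf7 (0.62 ± 0.10, adjusted p = 1.96e-04) and the RNA sensor Oas1a (1.90 ± 0.15, adjusted p = 1.19e-06) rose. Immediate early genes were higher in 13 of 18 and lower in 3, with 5 higher past a 2-fold test, among them Klf6 (541 ± 14.1 CPM with 4OI and 179 ± 28.0 CPM with DMSO; 1.60 ± 0.12, adjusted p = 6.95e-07), Jun (0.98 ± 0.07, adjusted p = 6.05e-07) and Atf3 (148 ± 4.64 CPM with 4OI and 66.3 ± 4.75 CPM with DMSO; 1.16 ± 0.09, adjusted p = 6.10e-07). With Bobcat339 12 of the 18 were higher than with DMSO and 1 lower.

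Cell cycle and death genes changed in both directions. Of 26 replication and mitosis genes 17 were lower, 10 of them past a 2-fold test, and 4 higher (median -1.18). Mcm6, a helicase subunit, had 64.6, 65.9 and 68.9 CPM with 4OI, against 233, 235 and 231 CPM with DMSO (log2 fold change -1.81 ± 0.08, adjusted p = 6.65e-09). Mki67, a proliferation marker, was low in all libraries at 3.66 ± 0.984 CPM with 4OI and 3.05 ± 0.333 CPM with DMSO (adjusted p = 0.448). Ccnd1, the G1 cyclin, rose, with 44.2 ± 1.19 CPM with 4OI and 11.1 ± 1.44 CPM with DMSO (log2 fold change 1.99 ± 0.16, adjusted p = 1.07e-06). Of 19 p53 targets 8 were higher and 9 lower, 2 of these past a 2-fold test. The cell cycle inhibitor Cdkn1a averaged 404 ± 2.26 CPM with 4OI and 306 ± 17.5 CPM with DMSO (log2 fold change 0.40 ± 0.09, adjusted p = 0.00229). Pmaip1 (NOXA), a BH3-only death protein, had 29.3, 30.7 and 28.5 CPM with 4OI, against 1.46, 1.16 and 1.38 CPM with DMSO (log2 fold change 4.47 ± 0.23, adjusted p = 2.91e-08). Of 20 cell death regulators 11 were higher and 5 lower (median 0.69), including the necroptosis kinase Ripk3 at 36.5 ± 2.02 CPM with 4OI and 2.45 ± 0.290 CPM with DMSO (log2 fold change 3.90 ± 0.17, adjusted p = 6.92e-09) and the caspase inhibitor Xiap at 367 ± 28.9 CPM with 4OI and 101 ± 15.7 CPM with DMSO (log2 fold change 1.85 ± 0.18, adjusted p = 4.00e-06).

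Most of the largest changes were in genes with under 1 CPM in 1 group; Mmp12 and Ednrb were not. Among protein-coding genes with a mean of at least 5 CPM, the receptor chain Il7r had 14.1, 12.6 and 12.8 CPM with 4OI, against 0, 0 and 0 CPM with DMSO, at least 73.5-fold higher against the floor. Il11, an IL-6 family cytokine, had 214, 209 and 207 CPM with 4OI, against 0.624, 0.358 and 0.240 CPM with DMSO (adjusted p = 4.38e-09). Mmp12, the macrophage elastase, had 3488, 3497 and 3279 CPM with 4OI, against 13.1, 11.02 and 13.4 CPM with DMSO (log2 fold change 8.09 ± 0.54, adjusted p = 2.12e-07). The EGF receptor ligand Ereg averaged 101 ± 2.90 CPM with 4OI and 0.502 ± 0.0429 CPM with DMSO (log2 fold change 7.64 ± 0.27, adjusted p = 1.67e-09). The endothelin receptor Ednrb had 817, 831 and 891 CPM with 4OI, against 6.20, 5.01 and 5.30 CPM with DMSO (log2 fold change 7.26 ± 0.22, adjusted p = 5.95e-10). The other rises taken by the rule were Edil3, Nav3, Hvcn1, Prkar2b, Cemip, Lancl3 and Rgs1, with 4OI means from 14.2 CPM for Nav3 to 116 CPM for Rgs1 and DMSO means under 1 CPM.

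In all, 239 genes rose by more than the top macrophage, endothelial or stellate marker, 40 of them protein-coding with a mean of at least 5 CPM. At the other end 446 genes fell below Apob, the lowest plasma protein gene, 43 of them of that class. The counts of 239 and 446 use fitted folds and can include genes at or under the floor, whose folds are uncertain. Of all genes tested 171 had no counts in any DMSO library and 400 had none in any 4OI library. Klhdc7a had 0, 0 and 0.0456 CPM with 4OI, against 13.7, 13.9 and 14.1 CPM with DMSO and Tlr5, the flagellin receptor, 0.0880, 0.0537 and 0 CPM with 4OI, against 20.4, 15.9 and 15.1 CPM with DMSO, with 4OI libraries at or under the floor in both. Gldc, the glycine cleavage enzyme, had 0.453, 1.14 and 1.04 CPM with 4OI, against 116, 114 and 104 CPM with DMSO (log2 fold change -6.99 ± 0.25, adjusted p = 1.50e-09). Mgam, a glucosidase, averaged 0.337 ± 0.156 CPM with 4OI and 41.2 ± 4.92 CPM with DMSO (log2 fold change -6.93 ± 0.27, adjusted p = 3.07e-09). Other falls taken by the rule were Fam169b, Spon2, Slc44a3, Sgsm1, Gprin3, Sec14l4 and Abcc12, with 4OI means under 0.3 CPM and DMSO means from 12.2 CPM for Slc44a3 to 39.8 CPM for Spon2.

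Matrix, growth factor and lysosome genes were mostly higher. In the same 4OI libraries 21 of 21 endothelial, 15 of 20 stellate and 22 of 22 macrophage markers were higher, and their part in these values was not tested. Of 18 matrix genes 14 were higher and 4 lower (median 1.24), with 9 higher past a 2-fold test. The basement membrane collagen Col4a1 had 847, 868 and 914 CPM with 4OI, against 153, 161 and 135 CPM with DMSO (log2 fold change 2.55 ± 0.09, adjusted p = 1.21e-09). Fibronectin (Fn1), which hepatocytes secrete, had 121, 119.6 and 114 CPM with 4OI, against 2741, 2871 and 2390 CPM with DMSO (log2 fold change -4.50 ± 0.09, adjusted p = 8.53e-11). Of 16 TGF beta and BMP genes 14 were higher and 2 lower (median 1.61). Tgfb1 averaged 195 ± 9.24 CPM with 4OI and 16.7 ± 0.838 CPM with DMSO (log2 fold change 3.54 ± 0.09, adjusted p = 2.42e-10) and Tgfb2 0.534 ± 0.327 CPM with 4OI and 12.5 ± 0.798 CPM with DMSO (log2 fold change -4.53 ± 0.38, adjusted p = 1.42e-06). Bmp6, an endothelial signal for hepcidin, averaged 268 ± 6.81 CPM with 4OI and 26.6 ± 1.45 CPM with DMSO (log2 fold change 3.33 ± 0.08, adjusted p = 1.53e-10). Among YAP and TEAD genes 7 of 14 were higher and 5 lower, with the coactivators opposed: Wwtr1 (TAZ) at 2.10 ± 0.08, adjusted p = 1.73e-09 and Yap1 at -1.32 ± 0.07, adjusted p = 5.06e-08. Lysosome genes were higher in 15 of 21, 8 of them past a 2-fold test, and lower in 1 (median 0.65), with the protease Ctsb at 3986 ± 56.2 CPM with 4OI and 1575 ± 108 CPM with DMSO (log2 fold change 1.34 ± 0.07, adjusted p = 4.78e-08).

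Genes of general cell upkeep moved less, and mostly downwards. None of 22 ribosomal protein genes was higher and 15 were lower (median -0.45), none of 21 proteasome genes was higher and 13 were lower (median -0.40), and no call in either list was left when a change of at least 2-fold was tested. Nuclear respiratory chain genes were lower in 19 of 20 (median -0.68), 1 of them past 2-fold. Mitochondrially encoded genes were higher in 7 of 13 and lower in 3, none past 2-fold, with mt-Co1 at 48810 ± 2467 CPM with 4OI and 26949 ± 2820 CPM with DMSO (log2 fold change 0.86 ± 0.10, adjusted p = 3.08e-05) and mt-Nd5 at 2509 ± 204 CPM with 4OI and 4726 ± 370.3 CPM with DMSO (log2 fold change -0.91 ± 0.12, adjusted p = 6.61e-05). Common reference genes were no fixed point. Actb averaged 1509 ± 103 CPM with 4OI and 2573 ± 309 CPM with DMSO (log2 fold change -0.77 ± 0.10, adjusted p = 4.48e-05). Polr2a averaged 333 ± 5.02 CPM with 4OI and 127 ± 8.51 CPM with DMSO (log2 fold change 1.39 ± 0.07, adjusted p = 2.92e-08). Tbp averaged 39.0 ± 2.66 CPM with 4OI and 38.5 ± 1.69 CPM with DMSO (adjusted p = 0.872).

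Length of the transcript went with direction. Protein-coding genes were put in 4 equal groups by exon length. In the group with the shortest 23.9% were higher and 43.4% lower, with a median log2 fold change of -0.35. In the group with the longest 49.9% were higher and 24.2% lower, with a median of 0.40. The part of length in the list results was not tested.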

How the data were processed

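RNA sequencing libraries of cultured mouse hepatocytes were compared, 3 with 4OI and 3 with DMSO. The authors deposited 1 table of 56691 genes by 9 libraries whose values were read as estimated counts (per gene, whole numbers, no scaling between libraries). Per the submitters' processing notes the tools included featureCounts 1.5.0-p3, HISAT2 2.0.5 and CASAVA 1.8. The build, annotation and strand setting were not given in the sources used here. From 43.7% to 45.6% of values from 4 to 40 were multiples of 4, against 27.0% if values were spread evenly over that range. About 4 deposited counts were therefore taken as 1 read pair, and the floor of 3 read pairs as 12 counts per library. Most values in that range were not multiples of 4, so the ratio is an assumption. Floors cover counting error only. Without strand information, reads of overlapping antisense genes cannot be told apart. Symbols were matched by Ensembl identifier for 91.9% of genes.

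The two-sided quasi-likelihood test of edgeR 4.0.16 (R 4.3.3) was fitted on all 9 libraries with TMM scaling after filterByExpr, and p-values were adjusted by Benjamini-Hochberg over 18379 genes. The biological coefficient of variation was 0.240. Alternatives were DESeq2 1.42.0, other scalings and filters, 6 libraries, a replicate block, at least 2-fold, values divided by 4, and each library left out. The test was checked on simulated data in which far fewer genes changed than were called here. That check does not cover so broad a change. Exon lengths came from GENCODE M21. Figures were drawn with matplotlib 3.10.9 under Python 3.11.15.

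The 52 gene lists (853 entries) and the comparison were chosen with earlier results of these data known, so list counts and medians are descriptions without a test. Named genes were the 12 largest rises and falls among called protein-coding genes with at least 5 CPM on average and no overlap between libraries, per list up to 4 called members with the highest CPM and 2 against the direction, and a set of standard markers. Genes outside this rule, named after their values were seen, were Apob, Arg1, Bach1, Cd68, Cd79a, Chac1, Clec4g, Cps1, Cryab, Erg, Fgg, Foxa1, Foxa2, Gclc, Gdf15, Gsta1, Gstm3, Lrat, Mlxipl, Mrc1, Pgd, Pklr, Ppara, Ptgs2, Ripk3, S100a9, Slc7a5, Stab2, Trim16, Txn1, Usp18, Vwf, mt-Rnr1, mt-Rnr2. Some genes that the rule takes are not reported here.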

Additional observations from a re-analysis of the deposited data

How the results depend on the processing

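Over 16 alternatives the count of higher genes was 5345 to 6920 and of lower genes 4808 to 6056, except that a test of at least 2-fold gave 2850 higher and 2759 lower. Leaving out 1 library at a time gave 5522 to 6031 higher and 5195 to 5463 lower. The scaling shifted all genes: the median log2 fold change was 0.08 with TMM, 0.01 with RLE, 0.17 with library size and 0.25 with housekeeping genes. Of 821 list and named genes, only Hspa8 changed direction (housekeeping scaling, 0.0025) among those called in the main fit or in the alternative. Changes of sign in genes called in neither were not counted. Same-numbered 4OI and DMSO libraries did not deviate together (correlations 0.0335, -0.171 and -0.0400). These values gave no sign that the numbers pair the samples, but they cannot show that the samples were unpaired. With the replicate block 6143 genes were higher and 5606 lower. Of 52 list medians 2 changed sign, those of the NADPH and housekeeping lists, both near 0. The NADPH list median of -0.02 was 0.15 with housekeeping scaling. Genes near the floor of 3 read pairs per library, such as Lrat and Il6, are limited by depth.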

Other observations

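Gene families grouped by symbol also showed a 2-sided pattern and were chosen after their values were seen. Some of their members, such as Krt8, Krt18, Cldn4 and Clec4f, are also in the lists above. These families therefore partly recount the same genes. All 7 desmosome genes tested, which rivet epithelial cells together, were lower (median log2 fold change -5.04), as were 10 of 16 keratins, 10 of 14 claudins, 20 of 21 major urinary proteins and 16 of 17 UDP-glucuronosyltransferases. The major urinary protein genes are near-identical copies, so their single values are uncertain. Of 21 C-type lectins 16 were higher (median 3.06), of 11 toll-like receptors 8, and of 17 V-ATPase subunits 11. The clustered protocadherins, adhesion proteins best known from neurons, were higher in 38 of 41 tested (median 5.08) and lower in none. Members of a protocadherin cluster share 3' exons, so their counts are not independent of each other.

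Mitochondrial ribosomal RNA rose more than mitochondrial messenger RNA. mt-Rnr2 had 6198, 7361 and 6958 CPM with 4OI, against 611, 593 and 916 CPM with DMSO (log2 fold change 3.27 ± 0.18, adjusted p = 4.05e-08), and mt-Rnr1 averaged 1881 ± 201 CPM with 4OI and 632 ± 195 CPM with DMSO (log2 fold change 1.57 ± 0.20, adjusted p = 4.33e-05). Together they took 0.915 ± 0.0707% of counts with 4OI and 0.132 ± 0.0375% with DMSO (SD, n = 3 each).

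Of 8 TET and DNA methylation genes tested 4 were higher, 1 of them past a 2-fold test, and 3 lower. Tet2 averaged 15.04 ± 1.57 CPM with 4OI and 8.32 ± 0.955 CPM with DMSO (log2 fold change 0.85 ± 0.19, adjusted p = 0.00264) and Tet3 173 ± 4.21 CPM with 4OI and 65.6 ± 1.81 CPM with DMSO (log2 fold change 1.40 ± 0.07, adjusted p = 3.19e-08), while Uhrf1, which recruits DNMT1 to replicated DNA, averaged 2.76 ± 0.585 CPM with 4OI and 17.3 ± 1.20 CPM with DMSO (log2 fold change -2.65 ± 0.17, adjusted p = 2.00e-07). The metallothionein Mt1, a zinc-binding protein, averaged 149.2 ± 3.99 CPM with 4OI and 131 ± 16.1 CPM with DMSO and did not pass the test (adjusted p = 0.106), and 4OI minus Bobcat339 was -2.96, adjusted p = 1.32e-09 on the log2 scale. Of 13 clock genes 7 were higher and 3 lower, with Nr1d1 (REV-ERB alpha) at 84.3 ± 1.42 CPM with 4OI and 26.0 ± 2.60 CPM with DMSO (log2 fold change 1.70 ± 0.10, adjusted p = 6.82e-08). The cholesterol exporter Abcg1 averaged 124 ± 4.90 CPM with 4OI and 6.51 ± 0.775 CPM with DMSO (log2 fold change 4.25 ± 0.21, adjusted p = 2.12e-08), and Apoe 2358 ± 101 CPM with 4OI and 6289 ± 671 CPM with DMSO (log2 fold change -1.42 ± 0.10, adjusted p = 5.13e-07).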
